A study of Mus musculus with 6 samples.

Results

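The genes described here build and grip the epidermal basement membrane: integrins, laminins, type IV collagens and the components of hemidesmosomes, the rivet-like junctions on the underside of basal keratinocytes. Members were chosen by gene symbol, with earlier results of these data known. Every integrin chain and every laminin chain in the table was taken, with 15 further genes by name: the 6 type IV collagen chains, Col7a1, Col17a1, Nid1, Nid2, Hspg2, Agrn, Dst, Plec and Cd151. This gave 51 of the 19618 genes listed, of which 25 were integrins and 11 were laminins. Of these, 50 had enough counts to be tested, and Itga11, with 0 to 5 counts per library, did not.

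RNA was sequenced from tail keratinocytes of 4-month-old mice, in 3 libraries from Gpr161 epidermal knockouts and 3 from controls, to compare the genotypes. Knockout mice were labelled K14cre+ and Gpr161Flox-Homozygous, so Cre was driven by the keratin 14 promoter, which is active in basal keratinocytes and related stratified epithelia. No K14cre was listed for the controls. The control titled 1 was Gpr161Flox-Homozygous and the controls titled 2 and 3 were Gpr161Flox-Heterozygous, so carriage of Cre and loss of Gpr161 cannot be told apart. No treatment distinguished the groups, and all tails went through the same overnight digestion with trypsin and dispase, a protease known to cleave basement membrane proteins. The column names give a genotype and a tag, and libraries are named by that tag: DE679, DE685 and DE688 for the knockout, DE680, DE684 and DE689 for the control. Sex-linked transcripts differ between libraries of each group, so each group held at least 2 animals, but the labels do not say whether every library was a separate animal. The p-values measure the spread between these samples, which may be technical in part. Each knockout tag has a control tag next to it in number, and a fit with these couples as a block was added after seeing the data.

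Basal keratinocytes hold on to the basement membrane through integrin α6β4, which sits in hemidesmosomes, and integrin α3β1, both of which bind laminin-332. Inside the cell, plectin and the epithelial form of dystonin tie the hemidesmosome to keratin filaments. The transmembrane collagen XVII is also part of the hemidesmosome. Below, laminin-511, type IV collagen, nidogen and the heparan sulfate proteoglycans perlecan and agrin make up the sheet itself, and collagen VII anchors it to the dermis.

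The members that rose in the knockout were 4 matrix genes: Hspg2, Col4a2, Lamb2 and Lama5. Hspg2, which encodes perlecan, was 2.34-fold higher, Col4a2 1.94-fold, Lamb2 1.55-fold and Lama5 1.44-fold, with 3 libraries per group. None fell in edgeR or in DESeq2, although 1, Itgb5, was lower at an unadjusted p under 0.05. No integrin and none of the hemidesmosome genes Itga6, Itgb4, Col17a1, Dst, Plec or Cd151 passed the test. The threshold throughout was an adjusted p under 0.05 in edgeR's quasi-likelihood test, adjusted by the Benjamini-Hochberg method over 15422 genes. By that rule 192 of all genes tested were higher (1.24%) and 55 lower (0.357%), 1.60% together. Among the 50 members tested, 32 had a log2 fold change above 0 and 18 below, with a median of 0.080 beside −0.0036 over all genes tested.

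Sequences at the starts of these 4 genes are shown because the genes moved in the same direction. The first 3 are RefSeq promoter sequences on GRCm38.p6, cut before the earliest annotated start of the gene, read 5′ to 3′ on the gene's strand. Capitals mark the GC box GGGCGG or its reverse complement CCGCCC, a motif bound by Sp-family factors. Hspg2 lies on chromosome 4 (plus strand, 137468769 to 137570630), Lama5 on chromosome 2 (minus strand, 180176373 to 180225859) and Lamb2 on chromosome 9 (plus strand, 108479736 to 108490530). The parts shown are chr4:137468553-137468768, chr2:180225860-180226109 and chr9:108479612-108479735.
Hspg2: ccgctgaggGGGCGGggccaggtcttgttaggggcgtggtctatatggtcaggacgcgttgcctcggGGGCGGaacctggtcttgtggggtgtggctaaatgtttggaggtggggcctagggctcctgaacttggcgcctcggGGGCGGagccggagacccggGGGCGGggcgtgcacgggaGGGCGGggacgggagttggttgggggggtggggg
Lama5: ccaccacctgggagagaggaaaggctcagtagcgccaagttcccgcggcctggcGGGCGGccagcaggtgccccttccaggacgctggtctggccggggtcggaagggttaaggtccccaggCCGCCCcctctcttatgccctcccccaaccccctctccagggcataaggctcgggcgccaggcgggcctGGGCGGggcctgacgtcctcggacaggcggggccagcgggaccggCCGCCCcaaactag
Lamb2: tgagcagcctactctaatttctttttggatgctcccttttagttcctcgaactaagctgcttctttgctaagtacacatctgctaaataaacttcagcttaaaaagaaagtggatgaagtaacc
The Hspg2 stretch of 216 bases held 5 GC boxes and the Lama5 stretch of 250 bases held 4. The Lamb2 stretch of 124 bases held 0.

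Col4a2 and Col4a1 sit head to head on chromosome 8. Col4a2 runs along the plus strand from 11312805 to 11449287, Col4a1 along the minus strand from 11312826 back to 11198423, and their first exons overlap by 22 bases at chr8:11312805-11312826. Those bases are shown on the plus strand because the start sites of both genes, which encode the partner chains of the commonest type IV collagen, lie within them.
Col4a1 and Col4a2 overlap: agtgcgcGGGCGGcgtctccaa
One GC box, in capitals, falls in the overlap. The 300-base windows running from 250 bases before to 50 after each start were available for 35 of the 51 members, as 41 windows among 32851. A GC box on either strand was present in 23 of the 41 member windows and in 35.7% of all windows. The Col4a2 window held 3. Members that did not pass also had several, with 12 in an Agrn window, 4 in a Dst window and 3 in that of Itgb5. Others, such as Itga1 and Itgb7, had 0, so the counts do not mark the genes that rose. CCAAT or its reverse complement ATTGG was present in 11 of 41, against 37.4% of all. TGGGTGGTC, the letters of a binding site for Gli factors, or its reverse complement GACCACCCA, was in 0 of 41 and in 0.253% of all. A match describes letters only, and a missing match says only that the letters are absent from that window.

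**Figure D1:**
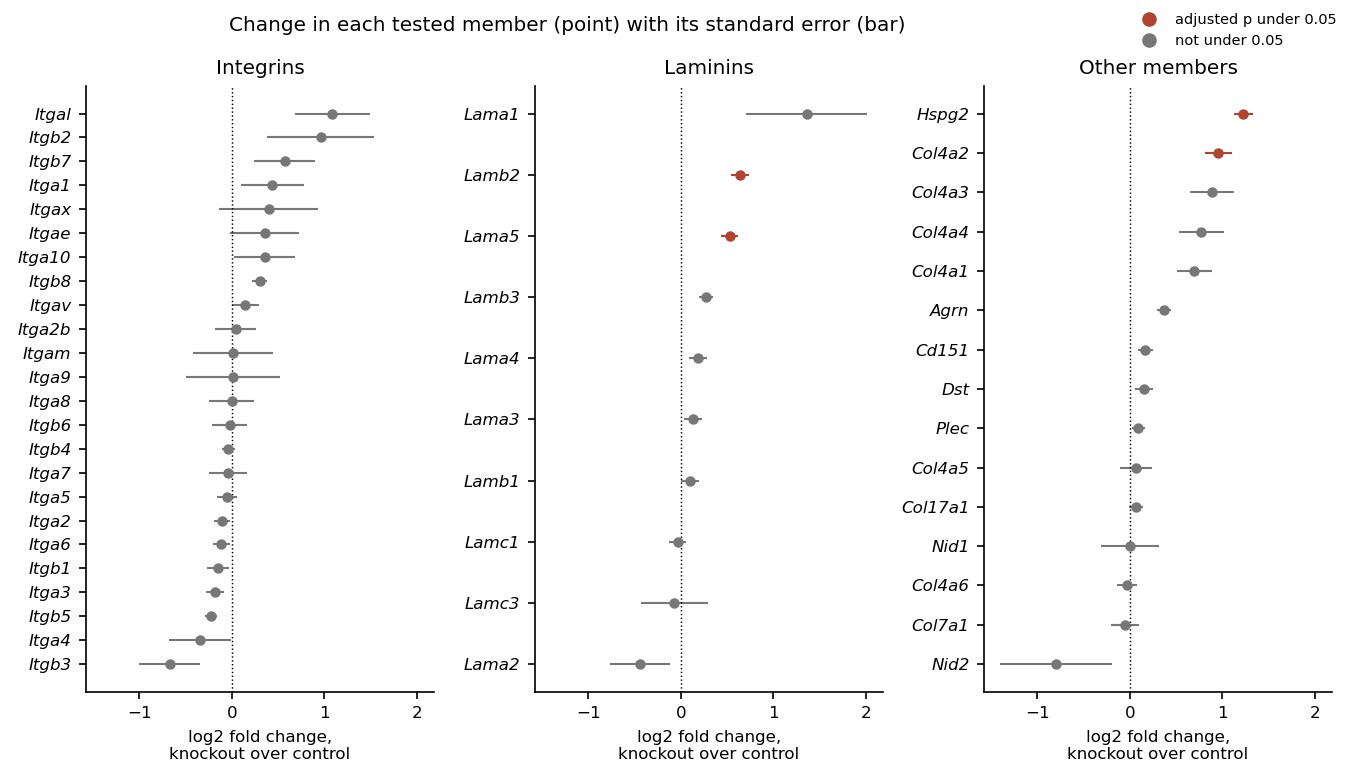
Log2 fold change of 49 tested members, knockout over control, from edgeR (points) with its standard error (bars), for integrins, laminins and other members; red points passed the adjusted threshold. The 4 red points are Lamb2, Lama5, Hspg2 and Col4a2, all above 0, and integrins lie on both sides of 0.

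Integrins are paired α and β receptor chains that span the membrane. Of 24 tested, 0 passed in edgeR, with or without the couples as a block, and 0 passed in DESeq2, limma-voom or limma with a trend. At an unadjusted p under 0.05, 2 were higher and 1 lower, where 9.90% and 9.10% of all genes tested fell on those sides, 19.0% together. Their log2 fold changes split 12 above and 12 below 0, with a median of 0.0047. In 2 integrins every knockout library was above every control library and in 1 every knockout library was below. Among all genes tested those shares were 12.8% in each direction, 25.6% together.

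The hemidesmosomal pair was abundant and similar in both groups. Itgb4, the β4 chain, was at 772 (DE679), 768 (DE685) and 727 (DE688) CPM (counts scaled to a common library total with TMM factors) in the knockout and at 752 (DE680), 738 (DE684) and 839 (DE689) in the control. Itga6, its α6 partner, was at 442, 403 and 454 CPM in the knockout and 513, 409 and 482 in the control, in the same order of libraries. The groups overlapped for both genes. The log2 fold changes were −0.04 (SE 0.07, edgeR adjusted p 0.804) for Itgb4 and −0.11 (SE 0.09, edgeR adjusted p 0.55) for Itga6.

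The chains of the α3β1 laminin receptor did not pass either. Itga3 was at 209, 236 and 204 CPM in the knockout and 273, 217 and 245 in the control, which is −0.18 on the log2 scale (SE 0.10, edgeR adjusted p 0.343). Itgb1, the β1 chain that many α chains share, was at 205, 243 and 195 CPM against 225, 276 and 212, which is −0.15 on the log2 scale (SE 0.12, edgeR adjusted p 0.529). With the couples as a block, which takes up the spread that neighbouring tags share, its SE was 0.055 and its edgeR adjusted p 0.165, and Itgb1 was lower in the knockout in each couple. Knockout and control libraries overlapped in each. Itga2, an α chain of the collagen receptor α2β1, had a log2 fold change of −0.11 (SE 0.09).

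Among integrins, a pair of β chains that partner αv, Itgb8 and Itgb5, gave the smallest unadjusted p-values. Itgb8, the β8 chain that presents latent TGF-β for activation, was at 50.5, 47.9 and 54.9 CPM in the knockout and 41.4, 38.3 and 44.9 in the control, with no overlap. Its log2 fold change was 0.30 (SE 0.09, unadjusted p 0.00829), and it did not pass after adjustment (edgeR adjusted p 0.132, and 0.0506 with the couples as a block). Itgb5, the β5 chain of a vitronectin receptor, was at 201, 195 and 190 CPM against 213, 246 and 224, again with no overlap but lower in the knockout. Its log2 fold change was −0.22 (SE 0.07, unadjusted p 0.0115, edgeR adjusted p 0.148). Their shared partner Itgav overlapped between groups (110, 108 and 79.6 against 77.6, 104 and 86.5 CPM; log2 fold change 0.15, SE 0.15). Itgb6, the β6 chain induced in wounded epithelium, stood at −0.02 (SE 0.19) and Itga5, of the fibronectin receptor, at −0.05 (SE 0.11) on the log2 scale.

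The 7 chains best known from leukocytes, Itga4, Itgal, Itgam, Itgax, Itgae, Itgb2 and Itgb7, were at 11.6 CPM or lower in every library, and none passed. Log2 fold changes ran from −0.34 for Itga4 (SE 0.34; 7, 3.93 and 10.7 against 8.65, 7.33 and 11.6 CPM) through 0.01 for Itgam to 1.09 for Itgal, with 6 of the 7 above 0. The groups overlapped for all but Itgal. Itgal, the α chain of LFA-1, was at 3.86, 2.14 and 1.40 CPM in the knockout and 0.887, 1.32 and 1.27 in the control. Its groups did not overlap (log2 fold change 1.09, SE 0.41, unadjusted p 0.0286, edgeR adjusted p 0.213). Its partner Itgb2 overlapped between groups, with 1.31, 0.404 and 0.739 against 0.665, 0.175 and 0.436 CPM (log2 fold change 0.96, SE 0.58). DE679 was the highest library for Itgal, Itgb2, Itgb7 and Itgae.

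The levels of immune markers are given beside these chains. All 10 of 10 immune markers had a log2 fold change above 0, with a median of 0.61. They were read in the same libraries and are not separate results. In edgeR 0 passed and 2 had an unadjusted p under 0.05, near the 19.0% of all genes tested. DESeq2 called 1, Lcp1, and 872 of all genes. Their summed level was 61.1 to 149 CPM in the knockout libraries and 32.8 to 117 in the control libraries, and Ptprc, the defining marker of leukocytes, was at 2.62 ± 1.09 CPM in the knockout and 1.69 ± 0.96 in the control (SD, n = 3). Their part in the leukocyte integrin values was not tested. In bulk RNA, more cells of a type and more RNA per cell cannot be told apart, here or for any gene below.

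The remaining integrins were sparse and overlapped between groups. Itgb3, the β3 chain of platelets and angiogenic endothelium, had the lowest integrin log2 fold change, −0.67 (SE 0.33, edgeR adjusted p 0.316), at 1.70, 1.10 and 2.26 against 2.53, 2.06 and 3.53 CPM. Itga9 was below 1.4 CPM in every library, at a log2 fold change of 0.01 (SE 0.51). The others, Itga1, Itga7, Itga8, Itga10 and Itga2b, ran from −0.04 for Itga7 to 0.44 for Itga1, with edgeR adjusted p-values of 0.524 or above. Exons of Itgam, Itga10, Itga1, Plec and Col7a1 overlap those of a same-strand gene model over 3450, 1739, 685, 205 and 36 bases, so their counts are uncertain. Opposite-strand gene models overlap exons of Itgb4 (537 bases), Itga4 (1124), Itgav (634), Itga8 (372), Lama2 (631), Lama3 (197), Lamc3 (382), Dst (1493), Cd151 (193) and Nid1 (143), among others. Their reads could be told apart only if strand was used in counting, which is not stated.

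**Figure D2:**
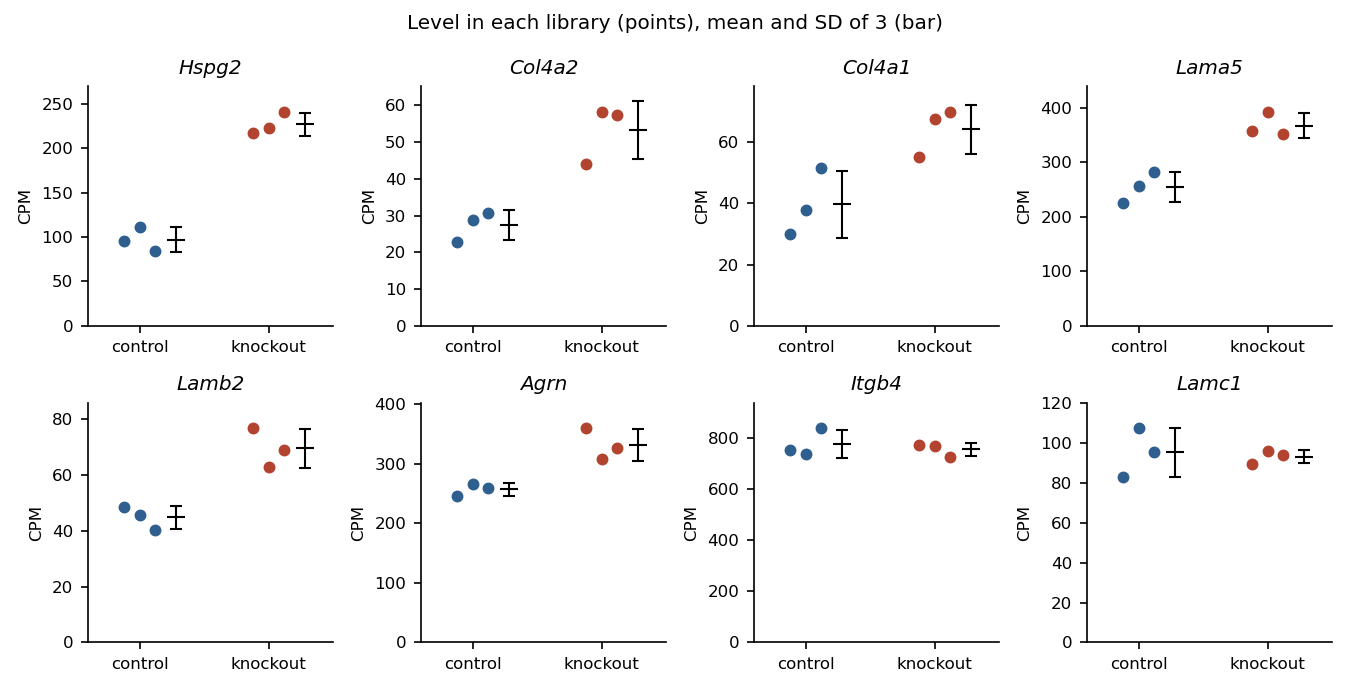
CPM of 8 members in each control library (blue, in the order DE680, DE684, DE689) and knockout library (red, in the order DE679, DE685, DE688), with the mean and SD of 3 libraries as a bar; each vertical axis starts at 0. For Hspg2, Col4a2, Col4a1, Lama5, Lamb2 and Agrn the red points lie above all blue points, while those of Itgb4 and Lamc1 lie among them.

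Laminins are trimers of 1 α, 1 β and 1 γ chain. Of 11 laminin genes tested, 2 rose (Lamb2 and Lama5) and 0 fell, against the 1.24% and 0.357% of all genes given above. Log2 fold changes were above 0 for 8 and below for 3, with a median of 0.13. Every knockout library was above every control library for 4 of them, Lamb2, Lama5, Lamb3 and Lama4, beside 12.8% of all genes tested.

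Lamb2, the β2 chain found in laminin-521, was at 76.8 (DE679), 63.0 (DE685) and 68.9 (DE688) CPM in the knockout and 48.4 (DE680), 45.8 (DE684) and 40.3 (DE689) in the control. The lowest knockout library was above the highest control. The log2 fold change was 0.63 (SE 0.10, edgeR adjusted p 0.0256). With 1 library left out, the log2 fold change ran from 0.56 to 0.70, and the call was lost without DE679 (edgeR adjusted p 0.104), DE688 (0.0916), DE689 (0.0665), DE684 (0.066) or DE680 (0.0638) and held without DE685 (0.0411).

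Lama5, the α5 chain of laminin-511 and laminin-521, was at 358, 393 and 352 CPM in the knockout and 226, 256 and 282 in the control. The groups did not overlap, and the log2 fold change was 0.53 (SE 0.09, edgeR adjusted p 0.0389). It ran from 0.45 to 0.61 with 1 library left out. The call held only without DE689 (edgeR adjusted p 0.041) and was lost without DE679 (0.127), DE688 (0.112), DE685 (0.0944), DE684 (0.0931) or DE680 (0.0815).

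The other chains that assemble with them were level. Lamb1, the alternative β chain of laminin-511, was at 61.4, 47.6 and 51.4 CPM in the knockout and 50.2, 49.1 and 50.6 in the control (log2 fold change 0.10, SE 0.10, edgeR adjusted p 0.618). Lamc1, the γ1 chain shared by laminin-511 and laminin-521, was at 89.6, 95.8 and 94.2 against 82.9, 107 and 95.6 CPM (log2 fold change −0.03, SE 0.09, edgeR adjusted p 0.884). Neither separated the groups.

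Lama3 and Lamb3 encode the α3 and β3 chains of laminin-332, the ligand of hemidesmosomes. Lamb3 was at 348, 360 and 329 CPM in the knockout and 297, 304 and 260 in the control, without overlap. Its log2 fold change of 0.27 (SE 0.08, unadjusted p 0.00784) did not pass in edgeR (adjusted p 0.128) and passed in DESeq2 (adjusted p 0.027) and with the couples as a block (edgeR adjusted p 0.042). Lama3 was at 245, 234 and 207 against 191, 232 and 202 CPM and overlapped between groups (log2 fold change 0.13, SE 0.09, edgeR adjusted p 0.477).

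A further 4 laminins included 3 below 3 CPM in every library. Lama4, an α chain of vessel laminins, was at 17.7, 15.8 and 18.6 against 14.8, 15.6 and 15.5 CPM (log2 fold change 0.19, SE 0.10, edgeR adjusted p 0.334). Lama1 had the largest laminin log2 fold change, 1.36 (SE 0.65, edgeR adjusted p 0.306), on 0.506 to 2.89 CPM in the knockout and 0.311 to 1.01 in the control. Lama2 (−0.44, SE 0.33) and Lamc3 (−0.07, SE 0.36) were below 2 CPM in all 6 libraries.

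Among the 15 other members, Hspg2 and Col4a2 rose and 0 fell, beside 1.24% and 0.357% of all genes tested. Log2 fold changes were above 0 for 12 and below for 3, with a median of 0.15. In 6 of the 15 all knockout libraries were above all controls, and these were also the 6 with an unadjusted p under 0.05: Hspg2, Agrn, Col4a1, Col4a2, Col4a3 and Col4a4. Of all genes tested, 12.8% were apart in that direction and 9.90% were higher at an unadjusted p under 0.05. All of these members encode proteoglycans or type IV collagens of the sheet. All 6 passed in DESeq2 and in edgeR with the couples as a block, and with sex as a covariate 4 did (Hspg2, Col4a2, Agrn and Col4a3). Over all genes, DESeq2 called 872, the block 704 and the sex covariate 409, beside 247 in the main fit. These fits used the same 6 libraries.

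Hspg2 had the lowest p of all members. Perlecan was at 216 (DE679), 223 (DE685) and 241 (DE688) CPM in the knockout and 95.3 (DE680), 112 (DE684) and 84.2 (DE689) in the control. Each knockout library was above every control by more than the range within either group. The log2 fold change was 1.22 (SE 0.10, edgeR adjusted p 0.00241). It passed in all 8 alternative analyses of 6 libraries and in all 6 with a library left out, where the log2 fold change ran from 1.13 to 1.34 and the edgeR adjusted p from 0.00259 to 0.0237. No other gene model overlaps its exons.

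Agrn, the second large heparan sulfate proteoglycan, was at 360, 307 and 326 CPM in the knockout and 245, 267 and 259 in the control. The groups did not overlap. Its log2 fold change of 0.37 (SE 0.07) stood just outside the threshold (edgeR adjusted p 0.0609) and inside it with DESeq2 (adjusted p 0.000451) or in edgeR with sex as a covariate (adjusted p 0.0485) or with the couples as a block (adjusted p 0.0408).

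Col4a2 was at 44.1, 58.2 and 57.4 CPM in the knockout and 22.8, 28.7 and 30.8 in the control. All knockout values were higher, by 0.95 on the log2 scale (SE 0.14, edgeR adjusted p 0.0241). With 1 library left out the log2 fold change ran from 0.84 to 1.08. The call held without DE679 (edgeR adjusted p 0.0283) and was lost without DE688 (0.0997), DE685 (0.0731), DE680 (0.0682), DE684 (0.0648) or DE689 (0.0509).

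Its neighbour and partner chain Col4a1 was at 55.0, 67.6 and 69.9 CPM in the knockout and 29.9, 37.6 and 51.4 in the control. The lowest knockout library, DE679, lay just above the highest control, DE689. The log2 fold change was 0.69 (SE 0.19, unadjusted p 0.00661), which did not pass in edgeR (adjusted p 0.118) and did in DESeq2 (adjusted p 0.00408) and with the couples as a block (edgeR adjusted p 0.0104). The exons shared with Col4a2 amount to 22 bases of 7464 in Col4a1 and 6619 in Col4a2.

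Col4a3 and Col4a4 form a second head-to-head pair, on chromosome 1, and encode chains of the α3α4α5 collagen known from kidney. Col4a3 was at 13, 12 and 17.8 against 8.74, 5.31 and 9.16 CPM (log2 fold change 0.88, SE 0.24, edgeR adjusted p 0.115). Col4a4 was at 14, 14.4 and 23.7 against 11.1, 7.63 and 11.8 CPM (log2 fold change 0.77, SE 0.25, edgeR adjusted p 0.159). Neither pair of groups overlapped, and both genes passed in DESeq2 (adjusted p 0.00838 and 0.0303) and in edgeR with the couples as a block (adjusted p 0.0194 and 0.0372). With sex as a covariate Col4a3 passed (edgeR adjusted p 0.0337) and Col4a4 did not (0.0796). Exons of Col4a3 overlap an opposite-strand gene model over 563 bases. The third pair, the X-linked Col4a5 and Col4a6, overlapped between groups, with log2 fold changes of 0.07 (SE 0.17) and −0.03 (SE 0.11).

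The hemidesmosome plaque and anchoring genes were level. Col17a1, the most abundant member per kilobase, was at 4174, 3856 and 3914 CPM in the knockout and 4046, 3528 and 3839 in the control (log2 fold change 0.07, SE 0.07, edgeR adjusted p 0.661). Plec, which encodes plectin, stood at 0.09 on the log2 scale (SE 0.07, edgeR adjusted p 0.522) and Dst, which encodes dystonin, 0.15 (SE 0.09, edgeR adjusted p 0.411). Cd151, a tetraspanin partner of α3β1 and α6β4, was at 0.17 (SE 0.08, edgeR adjusted p 0.313) and Col7a1, of the anchoring fibrils, at −0.05 (SE 0.15, edgeR adjusted p 0.882). Knockout and control libraries overlapped in all 5 of these.

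The nidogens, which link laminin to type IV collagen, were scarce. Nid1 was at 3.52, 3.35 and 3.50 CPM in the knockout and 2.97, 5.22 and 2.18 in the control, a log2 fold change of 0.0024 (SE 0.32). Nid2 was at or below 1.01 CPM in every library (log2 fold change −0.79, SE 0.61, edgeR adjusted p 0.512), and 437 bases of its exons overlap Rtraf on the opposite strand.

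**Figure D3:**
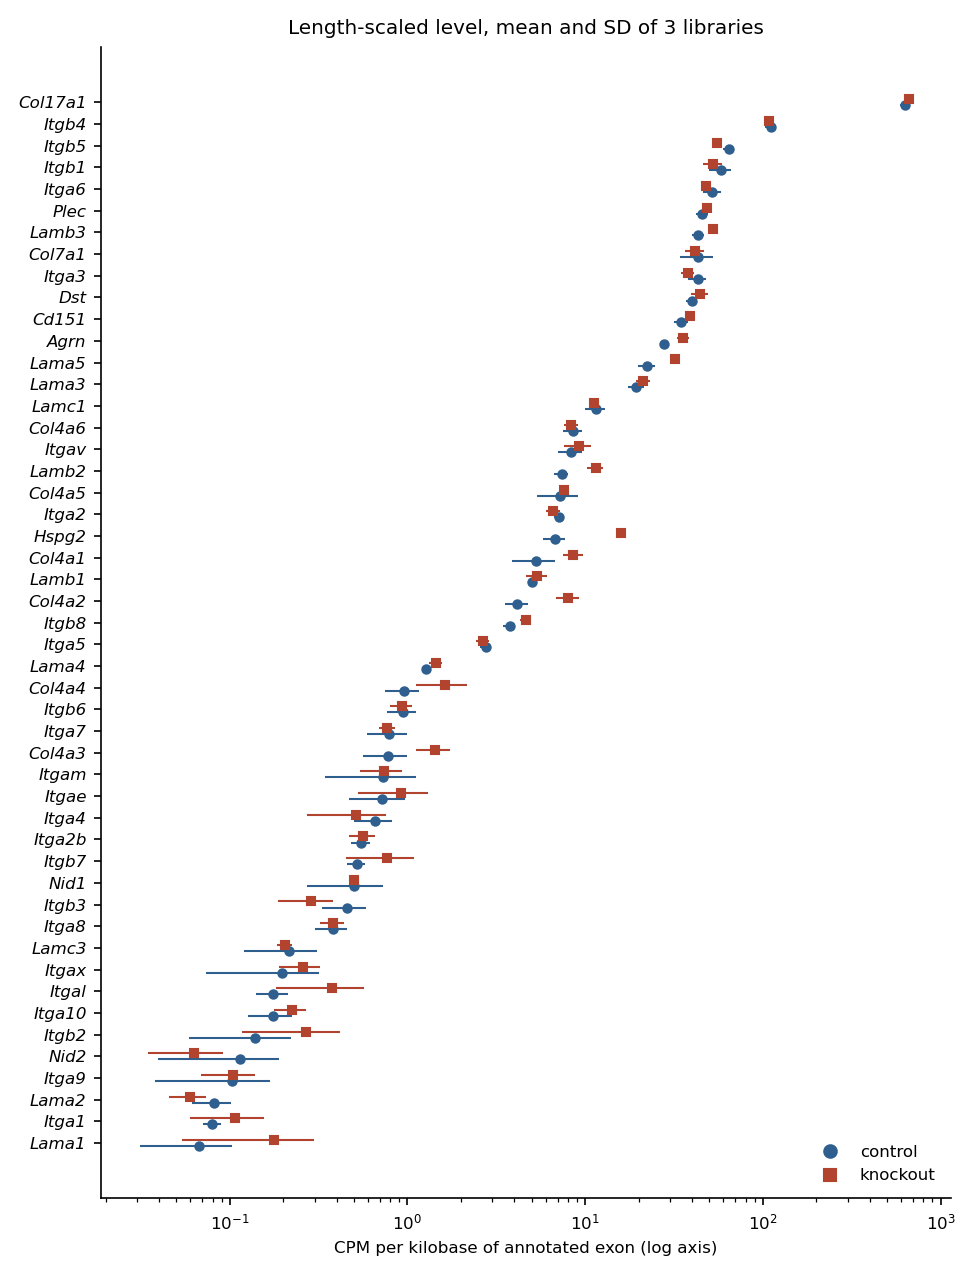
CPM per kilobase of annotated exon for 49 tested members, mean (points) and SD (bars) of 3 control libraries (blue circles) and 3 knockout libraries (red squares), on a log axis and ordered by the control mean. Col17a1 is highest at 633 in the control, and Hspg2 moves from 6.78 in the control to 15.9 in the knockout.

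Scaled by exon length, the tested members covered a wide range of control levels, from 633 ± 43.4 CPM per kilobase for Col17a1 and 111 ± 7.79 for Itgb4 down to 0.067 ± 0.036 for Lama1 (SD, n = 3). After Itgb4 came Itgb5 (64.2 ± 4.75), Itgb1 (58.2 ± 8.20), Itga6 (51.9 ± 5.93), Plec (45.5 ± 3.36), Lamb3 (43.4 ± 3.56) and Col7a1 (43.3 ± 8.97), in which neighbours differed by less than the sum of their SDs. Lamb3, Lama5 (22.4 ± 2.45) and Lama3 (19.4 ± 1.98) were above Lamc1 (11.5 ± 1.48), Lamb2 (7.37 ± 0.68) and Lamb1 (5.04 ± 0.08). Hspg2 (6.78 ± 0.96), Col4a1 (5.31 ± 1.46) and Col4a2 (4.15 ± 0.63) were in the same range as Lamb1. In the knockout, Hspg2 stood at 15.9 ± 0.89, Lama5 at 32.3 ± 1.95, Lamb2 at 11.4 ± 1.14 and Col4a2 at 8.05 ± 1.20 CPM per kilobase. The length is the union of all annotated exons, so genes with many isoforms, such as Dst with 41155 bases, are understated.

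**Figure D4:**
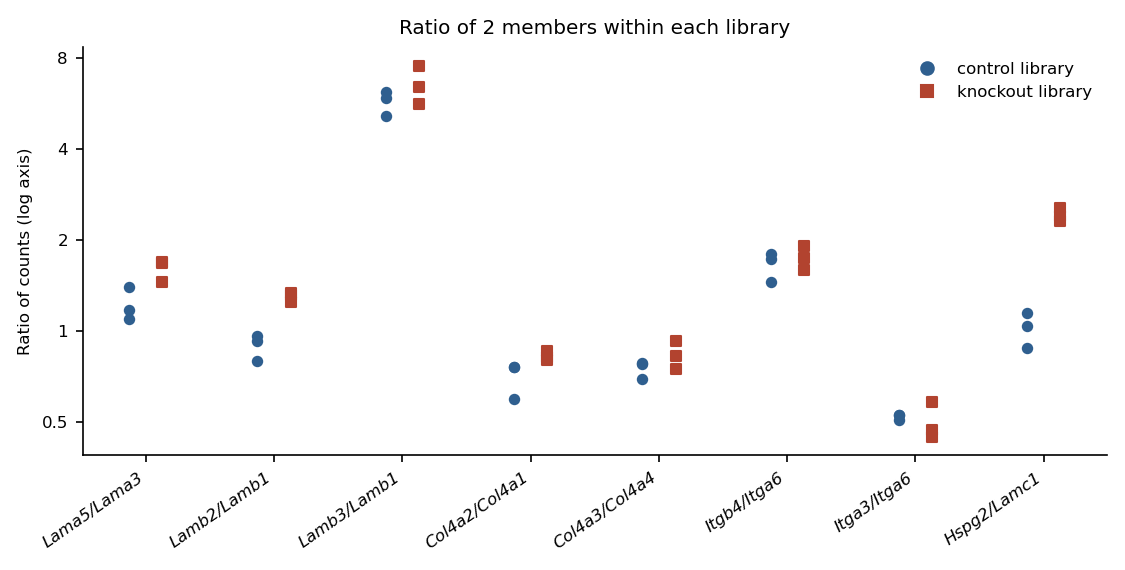
Ratio of the counts of 2 members within each control library (blue circles) and knockout library (red squares), on a log axis. The groups are apart for Lama5/Lama3, Lamb2/Lamb1, Col4a2/Col4a1 and Hspg2/Lamc1 and overlap for the other 4 ratios.

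Ratios between 2 members within a library do not depend on library scaling, and 8 were computed after the values had been seen, so they are descriptions with no test. Most pair partner or alternative chains, but Hspg2 over Lamc1 does not. The 4 ratios that separated the groups each put a gene that passed over one that did not, so they largely restate those calls. They are ratios of counts, not scaled by length, and only compare libraries. Lama5 over Lama3 was 1.46, 1.68 and 1.70 in the knockout and between 1.10 and 1.40 in the control. Lamb2 over Lamb1 was 1.25, 1.32 and 1.34 against 0.964, 0.932 and 0.798. In both, the chain that rose gained on its alternative in every knockout library relative to every control.

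Hspg2 over Lamc1 was 2.41, 2.32 and 2.56 in the knockout and 1.15, 1.04 and 0.881 in the control. Col4a2 over Col4a1 was 0.802, 0.861 and 0.822 against 0.763, 0.763 and 0.599, a narrow gap. The ratios of Itgb4 over Itga6, Itga3 over Itga6, Lamb3 over Lamb1 and Col4a3 over Col4a4 overlapped between groups. Itgb4 over Itga6, for example, was 1.75, 1.91 and 1.60 against 1.46, 1.80 and 1.74.

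Genes that work with the members were counted in 5 lists. Of all genes tested, 1.24% were called higher and 0.357% lower, and 19.0% had an unadjusted p under 0.05. Of 18 tested integrin adaptors and focal adhesion genes, 0 passed in edgeR, DESeq2 or limma, 12 had a log2 fold change above 0 and 5 had an unadjusted p under 0.05, with a median of 0.09. Of 5 tetraspanins 0 passed in those tools, with a median of 0.08 and 0 at an unadjusted p under 0.05. Of 10 other receptors for laminin, collagen or proteoglycan, 1 rose: Bcam, the Lutheran glycoprotein, which binds the laminin α5 chain. Bcam was at 382, 345 and 380 CPM in the knockout and 246, 225 and 248 in the control (log2 fold change 0.62, SE 0.07, edgeR adjusted p 0.00771), without overlap. Its call held with any 1 library left out (edgeR adjusted p 0.0177 to 0.0459). The median of that list was −0.01, and 3 of its 10 genes had an unadjusted p under 0.05.

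Of 14 tested integrin ligands outside the members, 3 rose and 1 fell, with a list median of 0.35. In edgeR 7 of the 14 had an unadjusted p under 0.05, beside 19.0% of all genes tested. DESeq2 called 7 of them and 872 of all genes, and Frem2 also passed in limma-voom and limma-trend. Vwa2, which encodes the basement membrane protein AMACO, was at 171, 187 and 187 CPM in the knockout and 81.3, 73.4 and 72.6 in the control (log2 fold change 1.26, SE 0.07, edgeR adjusted p 0.000428). Tnc, encoding tenascin-C (0.70, SE 0.12, edgeR adjusted p 0.0394), and Postn, encoding periostin (0.75, SE 0.11, edgeR adjusted p 0.0253), rose. Thbs1, encoding thrombospondin-1, fell by 0.84 on the log2 scale (SE 0.14, edgeR adjusted p 0.0354). Of 18 tested genes of basement membrane assembly and collagen modification, 1 rose, Fbln1 (fibulin-1, 0.75, SE 0.13, edgeR adjusted p 0.0384), with a list median of 0.12. In edgeR 9 of the 18 had an unadjusted p under 0.05, and DESeq2 called 4. The Vwa2 call held with each library left out (edgeR adjusted p 0.00202 to 0.0043), whereas those of Tnc, Postn, Thbs1 and Fbln1 were each lost without DE679 (0.071, 0.115, 0.135, 0.156), DE688 (0.117, 0.103, 0.0799, 0.148) or DE680 (0.114, 0.0715, 0.064, 0.113). Without DE685, Postn (0.0546) and Thbs1 (0.0857) were lost, without DE684 Tnc (0.0797), and without DE689 Tnc (0.118), Thbs1 (0.0683) and Fbln1 (0.118).

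**Figure D5:**
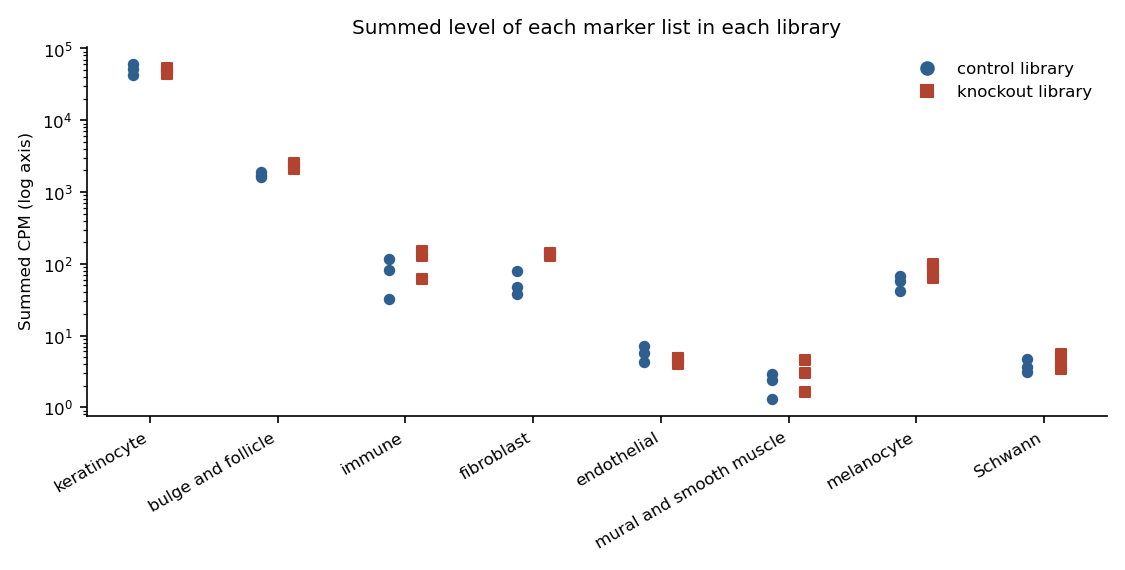
Summed CPM of the genes of each marker list in each control library (blue circles) and knockout library (red squares), on a log axis. The bulge and follicle and fibroblast sums are apart between groups; the endothelial sums stay at 3.99 to 7.20 CPM.

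Several members are also made by other skin cells, so marker levels are given beside them. Keratinocyte markers summed to 43880 to 53590 CPM in the knockout and 43020 to 61280 in the control, led by Krt10, Krt5 and Krt14, and 0 of 7 passed in edgeR, with 1, Trp63, at an unadjusted p under 0.05 and past the threshold in DESeq2. The sum hides differences between the markers. Krt5 and Trp63 were higher in every knockout library than in every control (log2 fold changes 0.21 and 0.23), and Dsp was lower in every one (−0.13). Among all genes tested 12.8% were apart in each direction. Krt14, Krt1, Krt10 and Dsg3 overlapped between groups, at 0.03, −0.25, −0.34 and 0.15. Bulge and follicle markers summed to 2122 to 2523 CPM against 1635 to 1915, with 6 of 7 above 0 and a median log2 fold change of 0.42. In edgeR 5 of the 7 had an unadjusted p under 0.05, beside 19.0% of all genes tested. Of these 1, Nfatc1, was past the threshold (log2 fold change 0.95, SE 0.10, edgeR adjusted p 0.00771), beside 1.60% of all genes. DESeq2 called 5 of the list and 872 of all genes. Their part in the rises of Hspg2, Col4a2, Lamb2 and Lama5 was not tested.

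Endothelial cells make perlecan and type IV collagen, and their markers summed to 3.99 to 4.90 CPM in the knockout and 4.28 to 7.20 in the control. Of 5 tested, 1 was above 0, and 0 passed in edgeR or DESeq2 or had an unadjusted p under 0.05. Cdh5, a defining marker, was at 0.32 ± 0.10 CPM in the knockout and 0.63 ± 0.18 in the control (SD, n = 3). Vwf went the other way without overlap, at 1.26 ± 0.15 against 0.77 ± 0.23 CPM. Tek was at 0.65 ± 0.03 against 0.64 ± 0.24, Pecam1 at 1.64 ± 0.37 against 2.16 ± 0.40 and Kdr at 0.49 ± 0.12 against 1.04 ± 0.64. Mural and smooth muscle markers summed to 1.62 to 4.55 against 1.31 to 2.94 CPM, and Schwann markers to 3.41 to 5.56 against 3.15 to 4.68. Among the mural markers, Rgs5 was at 1.14, 0.231 and 1.09 CPM in the knockout and 0.222, 0.0439 and 0.119 in the control. It held 1 to 28 counts per library, too few to be tested, and Acta2, Myh11 and Pdgfrb overlapped between groups. Fibroblast markers summed to 129 to 142 CPM against 37.4 to 79.1, through Dcn, which rose by 1.90 on the log2 scale (SE 0.21, edgeR adjusted p 0.00782). The fibrillar collagens Col1a1, Col1a2 and Col3a1 had log2 fold changes of −0.38, −0.42 and −0.54, none past the threshold, and Lum was at 0.19 ± 0.08 CPM in the knockout and 0.16 ± 0.02 in the control. Melanocyte markers summed to 63.0 to 100.4 against 42.1 to 68.0 CPM, with 5 of 5 above 0 and 0 past the threshold in edgeR. In that test 2 had an unadjusted p under 0.05, beside 19.0% of all genes tested. DESeq2 called 1, Pmel, and 872 of all genes. Their part in the member values was not tested.

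Library totals were 17157864 to 25344399 estimated counts, so 3 counts equal 0.117 to 0.173 CPM, and such limits cover counting error only. The members took 1.14% to 1.21% of the counts in the knockout libraries and 1.03% to 1.08% in the control libraries. Y-linked transcripts with almost no Xist marked DE685 and DE684 as male, 1 per group. Gpr161 itself was at 28.8 ± 4.23 CPM in the knockout and 31.4 ± 1.10 in the control (log2 fold change −0.13, SE 0.11, edgeR adjusted p 0.553). A count over the whole gene does not show whether a floxed part is lost, so it does not check the labels. Gli1, a target of Hedgehog signalling, which Gpr161 is known to restrain, was at 69.4 ± 4.42 against 9.15 ± 0.86 CPM (log2 fold change 2.93, SE 0.10, edgeR adjusted p 1.77e-05).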

How the data were processed

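Polyadenylated RNA from 6 tail keratinocyte samples was made into stranded libraries, per the labels' protocols. The submitters' processing notes name bcl2fastq 2.20, cutadapt 1.18, STAR 2.7.0f, Partek and the build mm10; the annotation, the counting step and its use of strand are not given in the sources used here. The authors deposited estimated counts per gene, of which 53.0% to 57.7% of a library's values were whole, and a normalized signal that equals the estimated count times a constant for each library plus 0.001, as the deposited values show. Column names give genotype and tag but no sample title, so libraries were assigned by genotype only.

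The test planned for whole counts was applied to the estimated counts after rounding. Genes were filtered with filterByExpr (minimum count 10, minimum total 15), scaled with TMM factors (0.975 to 1.03) and fitted over all 6 libraries in edgeR 4.0.16 (R 4.3.3; glmQLFit, glmQLFTest, genotype only), with Benjamini-Hochberg adjustment over all genes tested. The standard error is the log2 fold change divided by the square root of F. Exon lengths, coordinates and overlaps came from GENCODE M21 (GRCm38), whose gene starts match those in the deposited table for all 51 members. No library was a copy of another: within groups, chi-square over its degrees of freedom was 11.2 to 36.3.

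The alternatives replaced TMM by RLE or by upper-quartile factors, dropped the filter or required a mean of 1 CPM, used DESeq2 1.42.0, limma-voom or limma-trend (limma 3.58.1, the latter on log2 of the authors' signal plus 1), added sex, read from Xist and Y-linked genes, or left out each library. With 3 against 3, an exact two-sided test cannot go below 0.1, so calls rest on the model across genes. Added after seeing the data was a block for couples of neighbouring tags (DE679 with DE680, DE685 with DE684, DE688 with DE689); no label says what the tags stand for. Over the genes tested, deviations from the group means correlated within each couple (0.238, 0.388 and 0.41), and other pairs across groups were at −0.34 to −0.0797. The deviations of each group sum to 0, so positive values within couples pull the other pairs below 0. That contrast is therefore no test of the block. DE685 and DE684 are also the libraries read as male, so sex and couple cannot be told apart there. The members, companion lists and markers were chosen with earlier results of these data known. Named were a set of 26 epidermal adhesion genes whatever their values, members past the threshold, the 3 largest changes per class, companions past the threshold, Gpr161 and Gli1; further members were named after their values were seen, and 1 of the 51 stays in every count but is otherwise not reported here. All 3 platelet markers were missing from the table used here.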

Additional observations from a re-analysis of the deposited data

How the results depend on the processing

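With either other scaling (RLE, upper quartile), either other filter, limma-voom and limma-trend, the counts of integrins (0), laminins (2) and other members (2) past the threshold were as in the main analysis. DESeq2 called 872 of all genes, 6 other members and 12 companions, and a sex covariate called 409, 4 and 11, where edgeR called 247, 2 and 6. The higher share of calls was 77.7% in edgeR and 64.8% in DESeq2. Laminins past the threshold were 3 in DESeq2 and 2 with the sex covariate, and integrins were 0 in both. With each library left out in turn, calls ran from 69 to 121 over all genes, 0 to 0 for integrins, 0 to 1 for laminins, 1 to 2 for other members and 2 to 6 for companions; these fits have fewer samples. Over the named genes and the 8 analyses of 6 libraries, 313 values kept direction and side of the threshold, 4 came to pass it and 1 changed sign, Nid1 without a filter (−0.0033). With libraries left out, 190 kept both, 33 no longer passed and 17 changed sign. Within that named set, the sign changes were all in members whose log2 fold change over the 6 libraries was under 0.1 in size: Itgb4 (log2 fold change −0.075 to 0.023), Itga5 (−0.12 to 0.0097), Itga9 (−0.28 to 0.65), Itgb6 (−0.14 to 0.13), Lamb1 (−0.0086 to 0.17), Lamc1 (−0.12 to 0.061), Col7a1 (−0.16 to 0.13) and Nid1 (−0.24 to 0.42). Members outside that set also changed sign, some with larger values over the 6 libraries. Itgax (0.40) went as low as −0.037 and Itgae (0.35) as low as −0.048 with a library left out. The columns carry no replicate numbers. The replicate block over neighbouring tags, added after seeing the data, called 704 of all genes, 0 integrins, 3 laminins, 6 other members and 11 companions; of the named genes, 37 kept direction and side and 3 came to pass. Standard errors exceed 0.5 for Nid2, Itga9, Lama1, Itgb2 and Itgax, all at means under 2 CPM. The cause was not tested.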
